A study of Mus musculus with 43 samples.

Results

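The 10 NAD genes *Nmrk1*, *Nmrk2*, *Nampt*, *Nmnat1*, *Nmnat2*, *Nmnat3*, *Naprt*, *Nadk*, *Sirt1* and *Sirt3* were followed through 43 single NAcLat→VTA cells. They are 10 of the 35825 genes in the deposited tables and were chosen by name. *Nmrk2* was on the list because its ratio between diets had stood out in earlier results of these cells, so its ratio is a description and carries no test. The cells are neurons of the lateral nucleus accumbens that project to the ventral tegmental area. They were marked by retrograde beads, recorded with a patch pipette and sequenced from the aspirated cytosol, with 1 library per cell. REG mice, labelled NORM, received standard chow, which gave 23 cells. HFD mice had standard chow and high-fat chow for at least 4 weeks, which gave 20 cells. The methods list C57BL/6J and other mouse lines, male and female, 6 to 8 weeks old, and the line used for these cells is not given in the sources used here. The study counts 10 REG and 11 HFD mice, but the labels name no mouse. Each diet therefore counts as 1 sample, and cells gave no p-value and no standard error. The labels also divide the cells into batch 1, with 13 REG and 5 HFD cells, and batch 2, with 10 REG and 15 HFD cells.

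NAD is a carrier of electrons and also a substrate that sirtuins and PARP enzymes split, releasing nicotinamide. Salvage enzymes return nicotinamide, nicotinamide riboside or nicotinic acid to NAD. *Nampt* turns nicotinamide into the mononucleotide NMN and limits the rate of salvage in most tissues. *Nmrk1* and *Nmrk2* phosphorylate nicotinamide riboside to the same product, and *Nmrk2* is best known from skeletal and cardiac muscle. *Nmnat1*, *Nmnat2* and *Nmnat3* convert NMN to NAD in the nucleus, in the cytosol and axon, and in mitochondria, and loss of *Nmnat2* starts the degeneration of injured axons. *Naprt* opens the route from nicotinic acid, *Nadk* phosphorylates NAD to NADP, and *Sirt1* and *Sirt3* are NAD-dependent deacetylases of the nucleus and of mitochondria.

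Total estimated counts ran from 176961 to 16919555 per cell (median, 1426795). *Gad1* and *Gad2*, which define GABAergic neurons, exceeded 15 CPM (estimated counts scaled to a total of 1000000 per cell) in 43 of 43 cells, and the dopamine receptor *Drd1* did so in 40. Over 7 microglial markers, the summed CPM ran from 0.341 to 1326 in REG cells (median, 50.8) and from 2.61 to 1467 in HFD cells (median, 52.3). All 7 of these markers had a higher mean in HFD cells, and 4 had a log2 ratio of at least 1. These were *Csf1r* (2.07) and *P2ry12* (2.27), which passed the filter described below, and *Cx3cr1* (3.26) and *Tmem119* (2.27), which did not. Over 5 oligodendrocyte markers, the medians were 97.7 CPM (REG) and 149 CPM (HFD). The part of these cell types in the results below was not tested, except where values are given.

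On the TPM scale, which divides by transcript length, 9 of the 10 members had a median in the lower and middle range of expressed genes, and *Sirt3* stood higher. It had the highest median level over the 43 cells, 34.2 TPM, and stood at the 80.4th percentile of the 10802 genes that passed the expression filter (more than 15 CPM in 5 or more cells, with a mean over 4 CPM). *Nmnat2* followed with 9.89 TPM, *Sirt1* with 7.08 TPM and *Nadk* with 6.29 TPM. The interquartile ranges of these levels were wide, from 0.332 to 107 TPM for *Sirt3* and from 2.63 to 21.8 TPM for *Nmnat2*, and neighbours in the order did not differ beyond this spread. *Nampt* (1.45 TPM), *Nmnat1* (0.700 TPM), *Nmrk1* (0.529 TPM) and *Nmrk2* (0.396 TPM) had medians near the bottom, and *Nmnat3* and *Naprt* had medians of 0. By mean TPM, *Nmrk2* rose from rank 8 to rank 4 of the 10 members, since a mean follows single high cells. *Nmnat3* and *Naprt* did not pass the filter, and the counts below are over the 8 members that did. *Nmrk2* and *Nmnat1* passed with the minimum of 5 cells above 15 CPM, 4 of them HFD and 1 REG for each gene, so they passed through the diet in which their mean was higher.

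**Figure D1:**
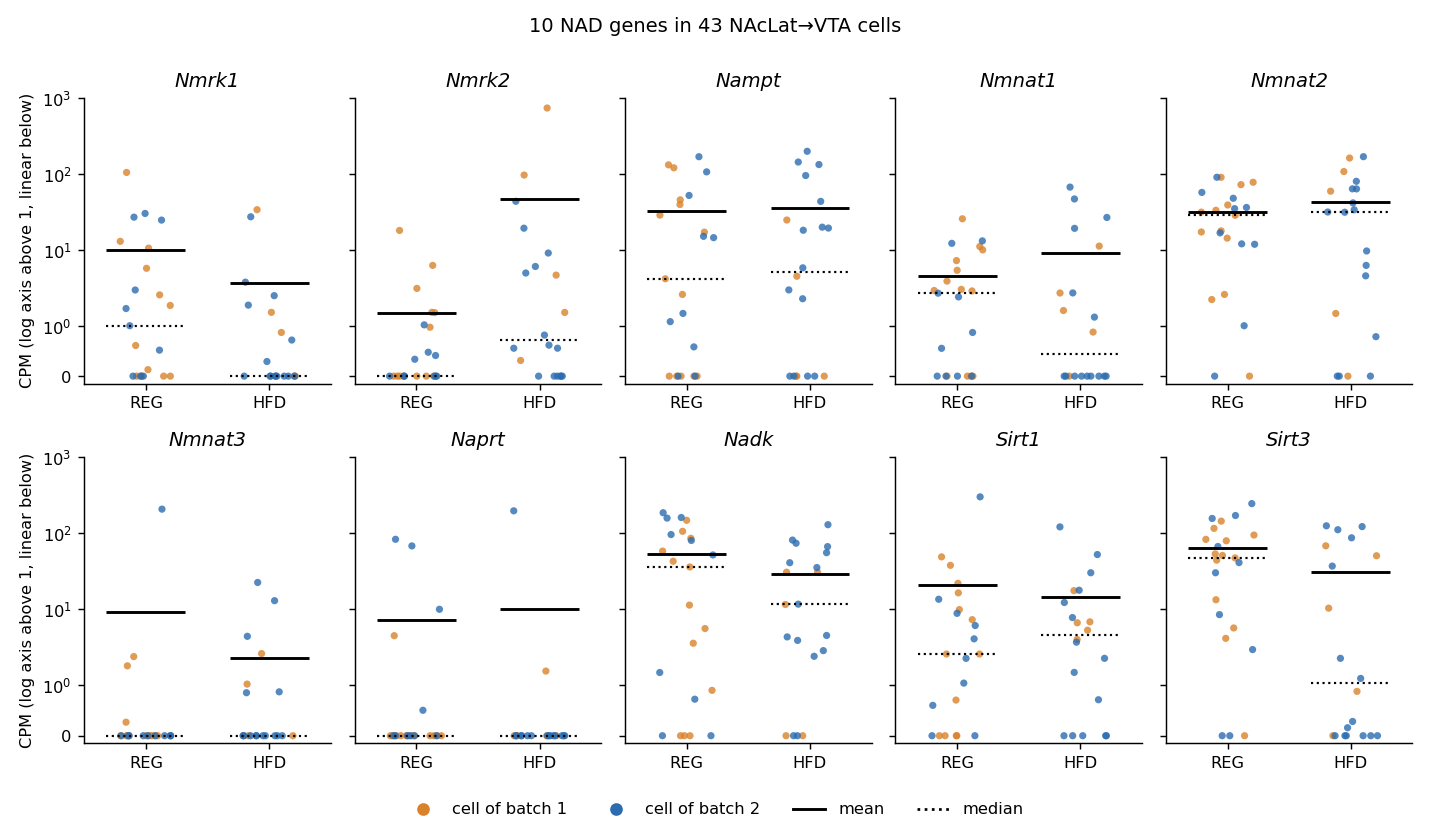
CPM of each of the 10 genes in every cell, by diet, on an axis that is logarithmic above 1 and linear below. Points are single cells coloured by batch, solid lines are means and dotted lines medians. Most genes run from 0 to over 100 CPM within a diet, and the REG and HFD points overlap in every panel.

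Between diets, *Nmrk2* was the only one of the 8 members with a log2 ratio of mean CPM of at least 1, and *Nmrk1* and *Sirt3* were the 2 with a ratio of −1 or less. Over all genes of the filter, 9.04% had a ratio of at least 1 and 14.3% had one of −1 or less. For 8 genes, counts of 1 and 2 are close to these shares, but the 1 is *Nmrk2*, which was listed because of its ratio. It also passed the filter mainly through HFD cells, with 4 HFD cells and 1 REG cell above 15 CPM. Its place among these counts, here and by batch, is therefore a description only. The split of all genes depends on the scaling, with 977 at or above 1 and 1541 at or below −1 as reported, and 1412 and 1326 when totals were scaled by TMM factors. The median ratio was −0.21 over the 8 members and −0.13 over all 10802 genes. In each batch on its own, *Nmrk2* kept a ratio of at least 1, as did 3.24% of genes, and *Nadk* and *Sirt3* kept one of −1 or less, as did 6.04%.

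**Figure D2:**
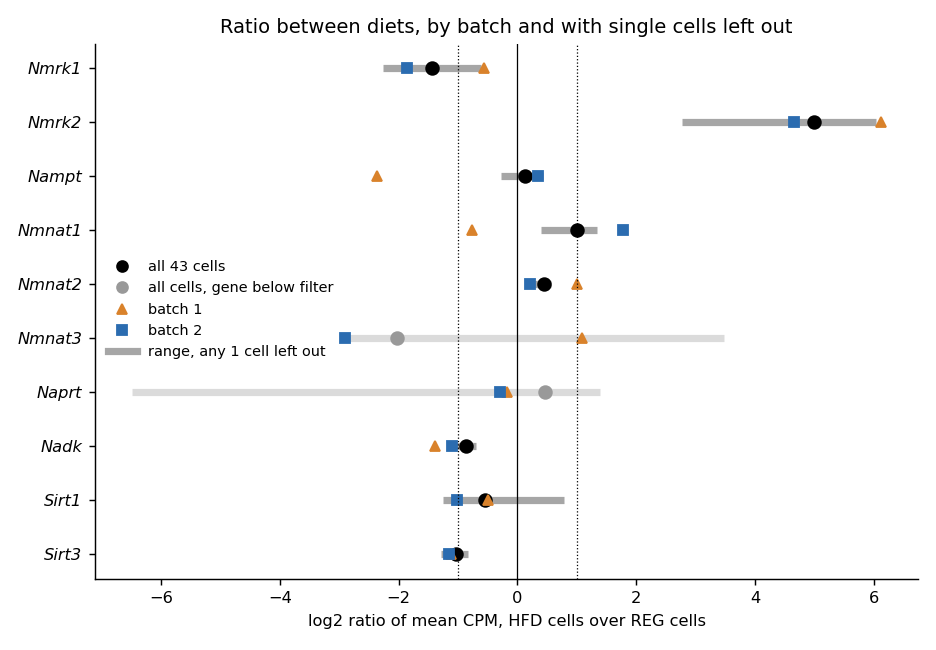
Log2 ratio of mean CPM, HFD over REG cells, for each gene. Circles are all 43 cells (grey where the gene was below the filter), triangles batch 1, squares batch 2, and bars the range with any 1 cell left out. *Nadk* and *Sirt3* have narrow bars below 0 and like values in both batches, *Nmrk2* lies far to the right, and the bars of *Nmnat3* and *Naprt* span 0 widely.

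*Nmrk2* (GRCm38 chromosome 10, minus strand, 81198170 to 81202051) had a mean of 1.45 CPM over REG cells against 45.9 CPM over HFD cells (log2 ratio, 4.99). The REG cells ran from 0 to 17.8 CPM with a median of 0, and the HFD cells from 0 to 730.5 CPM with a median of 0.712. Most cells of both diets thus overlapped, and the difference in means came from the upper tail. HFD cell 2 had 730.5 CPM, HFD cell 1 had 95.8, HFD cell 20 had 43.2 and HFD cell 18 had 19.1, whereas the highest REG cells were REG cell 12 with 17.8 CPM and REG cell 11 with 6.19. Thus 4 HFD cells lay above every REG cell.

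Summed over cells, *Nmrk2* amounted to 36.3 REG counts (Poisson, exact 95% interval, 25.2 to 49.8) and 615 HFD counts (567 to 666). The log2 ratio of these rounded sums over the summed totals was 4.52, with an exact interval from 4.04 to 5.05. These intervals cover counting error only, and the spread between cells was far wider. The gene was detected, with any count, in 43.5% of REG cells (10 cells, exact Clopper-Pearson interval at 95%, 23.2% to 65.5%) and 70% of HFD cells (14 cells, 45.7% to 88.1%). At least 3 counts were present in 3 REG cells and 10 HFD cells, and at least 10 counts in 1 REG cell and 4 HFD cells. When every cell was thinned to 150000 counts, *Nmrk2* remained in 4 REG cells, or 17.4% (4.95% to 38.8%), and 5 HFD cells, or 25% (8.66% to 49.1%). The intervals of both pairs overlap. They treat cells as independent, and a difference in detection between diets was not tested.

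The cells that carried most *Nmrk2* were among the shallowest and the deepest of the data. HFD cell 2, with 262790 counts, and HFD cell 1, with 178341, ranked 4th and 2nd from the lowest total of 43 cells, and 1 count was worth 3.81 and 5.61 CPM in them. HFD cell 2 held 192 *Nmrk2* counts and HFD cell 1 held 17.1. The value of the first cell is thus not one of a few counts scaled up, and that of the second rests on fewer. HFD cell 20, the second deepest cell, held 356 counts, and REG cell 12 held 15. The part of depth in the ratio was not tested beyond thinning, which gave a log2 ratio of 4.08.

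**Figure D3:**
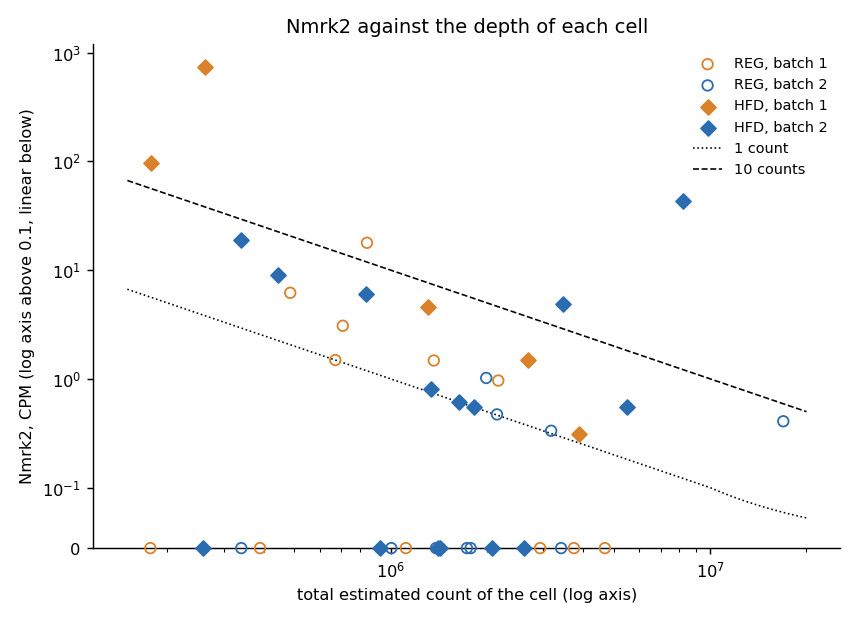
*Nmrk2* CPM of every cell against its total estimated count, both on log axes (linear below 0.1 CPM). Open circles are REG and filled diamonds HFD cells, coloured by batch, and the lines show what 1 and 10 counts give at each depth. With over 15 CPM, 4 HFD cells and 1 REG cell lie above or near the line of 10 counts, and many of the other cells with *Nmrk2* sit near 1 count.

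A single HFD cell held 79.6% of the summed *Nmrk2* CPM of its diet, and at least 50% was held by 1 HFD cell for 13.6% of genes of the filter. Among the 8 members, no other gene had such an HFD cell. In REG cells the same held for *Nmrk2* (53.6%, REG cell 12) and *Sirt1* (62.1%, REG cell 21), against 7.17% of genes. With the 2 highest HFD cells left out the ratio was 1.81, with 3 left out 0.96, with 4 left out 0.32 and with 5 left out −0.13. Leaving out only HFD cells lowers a ratio by construction. With the same number of highest cells left out of each diet, the ratio was 3.81 without 1 cell, 3.19 without 3 and 2.95 without 6, when 17 REG cells had a mean of 0.128 CPM and 14 HFD cells one of 0.989 CPM. Means this low are close to what 1 count is worth in a cell of median depth.

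**Figure D4:**
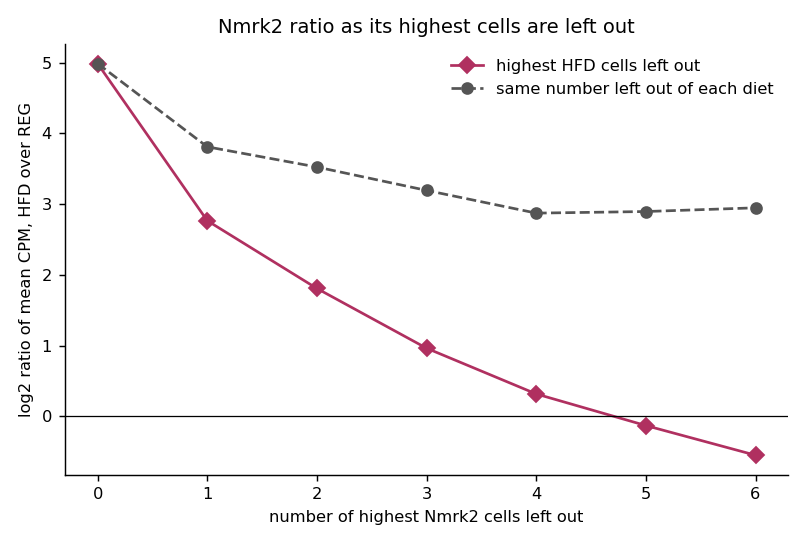
Log2 ratio of *Nmrk2* as its highest cells are left out, from 0 to 6. Diamonds leave out HFD cells alone and reach −0.13 at 5 cells, and circles leave out the same number of each diet and stay between 2.87 and 3.81 from 1 cell on.

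Both batches gave a higher mean of *Nmrk2* in HFD cells. In batch 1 the 5 HFD cells had 95.8, 730.5, 4.61, 1.49 and 0.310 CPM, and the 13 REG cells ran from 0 to 17.8 CPM with a median of 0. *Nmrk2* was thus present in 5 of 5 HFD cells and 6 of 13 REG cells of batch 1, and the log2 ratio was 6.12, or 3.42 without HFD cell 2. In batch 2 it was present in 9 of 15 HFD cells and 4 of 10 REG cells. The means there were 5.65 and 0.223 CPM, a ratio of 4.66, and 3.73 without HFD cell 20. The diet of a mouse and the batch of its cells were unevenly crossed, and which mice gave the high cells cannot be told from the labels.

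HFD cell 2 held 4 of the 10 members. *Nampt*, *Nmrk1*, *Nmnat3*, *Naprt*, *Nadk* and *Sirt3* had no count in it, which at its depth allows up to 3 counts, and *Nmnat2* had 106.5 CPM, *Nmnat1* 11.1 CPM and *Sirt1* 3.99 CPM. It held *Gad1* at 719 CPM. Its *Drd1* value of 15.2 CPM was the lowest of the HFD cells, which had a median of 180 CPM. Over 4 markers of D1 medium spiny neurons, *Drd1* among them, it had 1195 CPM in all. HFD cells ran from 97.4 to 5685 CPM in that sum, with a median of 1854 CPM. Over 4 markers of D2 medium spiny neurons it had 0 CPM, against an HFD median of 12.5 CPM. Its microglial markers summed to 3.81 CPM, its oligodendrocyte markers to 11.4 CPM and 6 muscle markers to 7.61 CPM. These 3 sums lay below the medians of HFD cells, which were 52.3, 149 and 25.1 CPM. Its 5 astrocyte markers summed to 29.3 CPM, above the HFD median of 10.02 CPM, and their part in the *Nmrk2* value was not tested. HFD cell 1 had 16.8 CPM of microglial and 323 CPM of oligodendrocyte markers. HFD cell 20, HFD cell 18 and REG cell 12 did carry microglial markers, with sums of 348, 65.8 and 1326 CPM and with 4, 3 and 4 of the 7 markers above 15 CPM. The part of microglial RNA in those 3 cells was not tested.

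The genes on either side were low in the cell with most *Nmrk2*. *Atcay*, 2457 bases away on the same strand, had means of 67.6 CPM in REG and 85.1 CPM in HFD cells, with 3.81 CPM in HFD cell 2 and 269 CPM in HFD cell 1. *Dapk3*, 4973 bases away, had means of 26.0 and 25.8 CPM and no count in HFD cell 2. The antisense gene *Atcayos* overlaps 270 of the 1854 exon bases of *Nmrk2*, its values were not used here, and 240 of the 1824 words of 31 bases in *Nmrk2* transcripts also occur in *Atcayos*. In all, 19.1% of *Nmrk2* words occur in transcripts of other genes, the highest share among the 10 members, so its estimated counts can include reads that the counting divided between genes. Across 43 cells, genes among those most like *Nmrk2* by Pearson correlation of log2(CPM + 1) were *Olfr887* (0.57) and *Rpusd4* (0.56). Without the 2 highest *Nmrk2* cells these were 0.46 and 0.26, and the points share their depth. *Olfr887* was detected in 91.3% of REG and 95% of HFD cells, and *Rpusd4* in 26.1% and 35%. The part of shared zeros in these correlations was not tested. Among the other members past the filter the correlation with *Nmrk2* lay between −0.27 (*Nmrk1*) and 0.13 (*Nmnat1*).

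*Nmrk1*, the other riboside kinase, had a lower mean in HFD cells. Its mean (chromosome 19, plus strand, 18631950 to 18652428) was 9.78 CPM over REG and 3.59 CPM over HFD cells (log2 ratio, −1.44). REG cells ran from 0 to 104 CPM with a median of 0.996, and HFD cells from 0 to 33.5 CPM with a median of 0. The ranges overlap over most of their length. It was detected in 15 REG cells, or 65.2% (42.7% to 83.6%), and 9 HFD cells, or 45% (23.1% to 68.5%), and after thinning in 9 REG cells and 2 HFD cells. REG cell 3 held 46.1% of the REG sum, and the ratio without it was −0.62. By batch it was −0.56 in batch 1 and −1.86 in batch 2. The batch 1 value rested on single cells, since it was 1.34 without REG cell 3 and −4.17 without HFD cell 5, while that of batch 2 ran from −3.75 to −1.40 over the cells left out in turn. A count of either riboside kinase was present in 17 REG cells, or 73.9% (51.6% to 89.8%), and 17 HFD cells, or 85% (62.1% to 96.8%), and a count of both in 8 REG and 6 HFD cells. After thinning the order was reversed, with either kinase in 11 REG cells, or 47.8% (26.8% to 69.4%), and 7 HFD cells, or 35% (15.4% to 59.2%). Both kinases then remained in 2 REG cells and 0 HFD cells.

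*Nampt* (chromosome 12, plus strand, 32819545 to 32853349) had means of 32.3 CPM in REG and 35.2 CPM in HFD cells, which is a log2 ratio of 0.13. REG cells ran from 0 to 167 CPM (median, 4.12) and HFD cells from 0 to 197 CPM (median, 5.10). Detection was 69.6% (47.1% to 86.8%) and 65% (40.8% to 84.6%). The batches disagreed in sign, with −2.36 in batch 1, where 2 of 5 HFD cells had a count, and 0.34 in batch 2. The batch 2 value was −0.06 without HFD cell 16, and the pooled ratio ran from −0.27 to 0.43 with single cells left out. *Nampt* together with at least 1 *Nmnat* gene, the pair that completes salvage from nicotinamide, was found in 15 REG cells, or 65.2% (42.7% to 83.6%), and 11 HFD cells, or 55% (31.5% to 76.9%). No count of *Nampt*, *Nmrk1*, *Nmrk2* or *Naprt* was present in 2 REG and 2 HFD cells, and after thinning in 7 and 4.

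*Naprt*, the entry from nicotinic acid (chromosome 15, minus strand, 75890956 to 75894481), was the most sparsely detected member. It had a count in 5 REG cells, or 21.7% (7.46% to 43.7%), and 2 HFD cells, or 10% (1.23% to 31.7%). In HFD cells, 99.2% of the summed CPM was in HFD cell 11, at 197 CPM, and REG cells 21 and 17 had 83.1 and 68.0 CPM. The log2 ratio of 0.46 became −6.49 without HFD cell 11, and both batches went against its sign, with −0.17 in batch 1 and −0.30 in batch 2. *Naprt* overlaps *Eef1d* on the same strand over 277 exon bases, and *Eef1d* had means of 58.9 CPM in REG and 121 CPM in HFD cells.

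Of the 3 *Nmnat* genes, *Nmnat2* (chromosome 1, plus strand, 152954993 to 153119261) was the most widely detected. It had a count in 21 REG cells, or 91.3% (72.0% to 98.9%), and 16 HFD cells, or 80% (56.3% to 94.3%). Its REG cells ran from 0 to 89.6 CPM (median, 28.3) and its HFD cells from 0 to 167 CPM (median, 31.1). The means were 31.6 and 42.9 CPM (log2 ratio, 0.44), with 1.01 in batch 1 and 0.21 in batch 2. With any 1 cell left out the pooled ratio stayed between 0.20 and 0.56, but batch 1 gave 0.36 without HFD cell 3 and batch 2 gave −0.23 without HFD cell 11. The sign did not hold on summed counts, where the ratio was −0.34 (exact interval, −0.43 to −0.25). REG cell 14, the deepest cell, held 1516 of the 2724 REG counts in that sum. By CPM, the highest *Nmnat2* cells held 12.3% of the REG and 19.5% of the HFD sum, the smallest such shares among the members.

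*Nmnat1*, the nuclear form (chromosome 4, minus strand, 149467572 to 149485202), had more CPM on average in HFD cells but was found in fewer of them. The means were 4.47 CPM in REG and 8.93 CPM in HFD cells (log2 ratio, 0.996). The medians ran the other way, 2.66 and 0.435 CPM, and detection was 65.2% (42.7% to 83.6%) in REG and 50% (27.2% to 72.8%) in HFD cells. REG cells reached 25.4 CPM, and HFD cells 14, 9 and 18 had 66.5, 46.4 and 26.5 CPM. Batch 1 gave −0.76 and batch 2 gave 1.78, and a direction is not given here. *Nmnat1* stood just outside the limit of 1, and *Sirt3*, at −1.04, just inside.

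*Nmnat3*, the mitochondrial form (chromosome 9, plus strand, 98287435 to 98420438), rested on 1 cell. REG cell 21 had 207 CPM, which was 97.9% of the REG sum, and the next REG cell had 2.37 CPM. The 7 HFD cells with a count lay at or below 22.5 CPM. The log2 ratio was −2.03 over all cells and 3.49 without REG cell 21, with 1.09 in batch 1 and −2.91 in batch 2. Detection was 17.4% (4.95% to 38.8%) in REG and 35% (15.4% to 59.2%) in HFD cells. At least 1 *Nmnat* gene was counted in 22 REG cells and 17 HFD cells.

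*Nadk* had a lower mean in HFD cells in both batches, but of the 2 batches a lower median in batch 2 only. Its means (chromosome 4, plus strand, 155562378 to 155591001) were 53.6 CPM in REG and 29.2 CPM in HFD cells (log2 ratio, −0.87). REG cells ran from 0 to 186 CPM with a median of 35.9, and HFD cells from 0 to 129 CPM with a median of 11.6. The diets overlap, and the share of cells with a count was alike, 78.3% (56.3% to 92.5%) and 80% (56.3% to 94.3%). By batch, the ratio of means was −1.39 in batch 1, where the medians were 11.3 CPM (REG) and 11.5 CPM (HFD). In batch 2 it was −1.11, with medians of 66.0 and 11.6 CPM. Leaving out any 1 cell kept the pooled ratio between −1.16 and −0.70. *Nadk* shared no word of 31 bases with another gene, and 100% of its counts were whole numbers within 0.01.

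*Sirt3* (chromosome 7, minus strand, 140863666 to 140882309) had a ratio below 0 under all 14 alternatives run and with any 1 of 43 cells left out. The means were 63.4 CPM in REG and 30.8 CPM in HFD cells (log2 ratio, −1.04). The medians stood further apart, 47.2 CPM in REG cells, which ran from 0 to 245 CPM, and 1.05 CPM in HFD cells, which ran from 0 to 125 CPM. Above 15 CPM were 15 of the 23 REG cells but 7 of the 20 HFD cells. Detection was 87.0% (66.4% to 97.2%) in REG and 65% (40.8% to 84.6%) in HFD cells, and after thinning 73.9% (51.6% to 89.8%) and 45% (23.1% to 68.5%), and both pairs of intervals overlap. Batch 1 gave −1.12, with medians of 50.9 CPM (REG) and 10.3 CPM (HFD), and batch 2 gave −1.16, with medians of 35.6 and 0.282 CPM. With any 1 cell left out the pooled ratio ran from −1.29 to −0.84, and it was at or below −1 in 25 of 43 cases. *Sirt3* overlaps *Ric8a* and *Psmd13* on the opposite strand over 418 and 342 exon bases, and 12.1% of its words occur in other genes. *Ric8a* had means of 96.2 CPM in REG and 52.4 CPM in HFD cells, and *Psmd13* had 35.4 and 43.2 CPM. Reads of the overlaps cannot be told apart here.

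*Sirt1* (chromosome 10, minus strand, 63319005 to 63381704) gave a direction that depended on 1 cell. The means were 21.1 CPM in REG and 14.5 CPM in HFD cells (log2 ratio, −0.54), and REG cell 21 alone had 301 CPM. Without that cell the ratio was 0.79. Batch 1 gave −0.50 and batch 2 gave −1.02, which became 2.04 without REG cell 21. The medians were 2.56 and 4.63 CPM, and the ratio on TPM was 0.31. A count was present in 73.9% of REG (51.6% to 89.8%) and 75% of HFD cells (50.9% to 91.3%), and after thinning in 43.5% (23.2% to 65.5%) and 70% (45.7% to 88.1%). REG cell 21 was also the highest REG cell for *Nmnat3* and *Naprt*.

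Of the 8 members past the filter, 5, *Nmrk1*, *Nampt*, *Nmnat1*, *Nmnat2* and *Sirt3*, were detected in a smaller share of HFD than of REG cells, as were 54.9% of genes of the filter. A cell held a median of 6 of the 10 members in REG mice (range, 2 to 9) and 5 in HFD mice (range, 3 to 9), and 4 in both after thinning. In batch 1 the medians were 6 and 8, and in batch 2 they were 6.5 and 5. The summed level of the 10 members was 182 TPM in REG cells (median, range 13.7 to 647) and 173 TPM in HFD cells (range, 8.86 to 624).

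**Figure D5:**
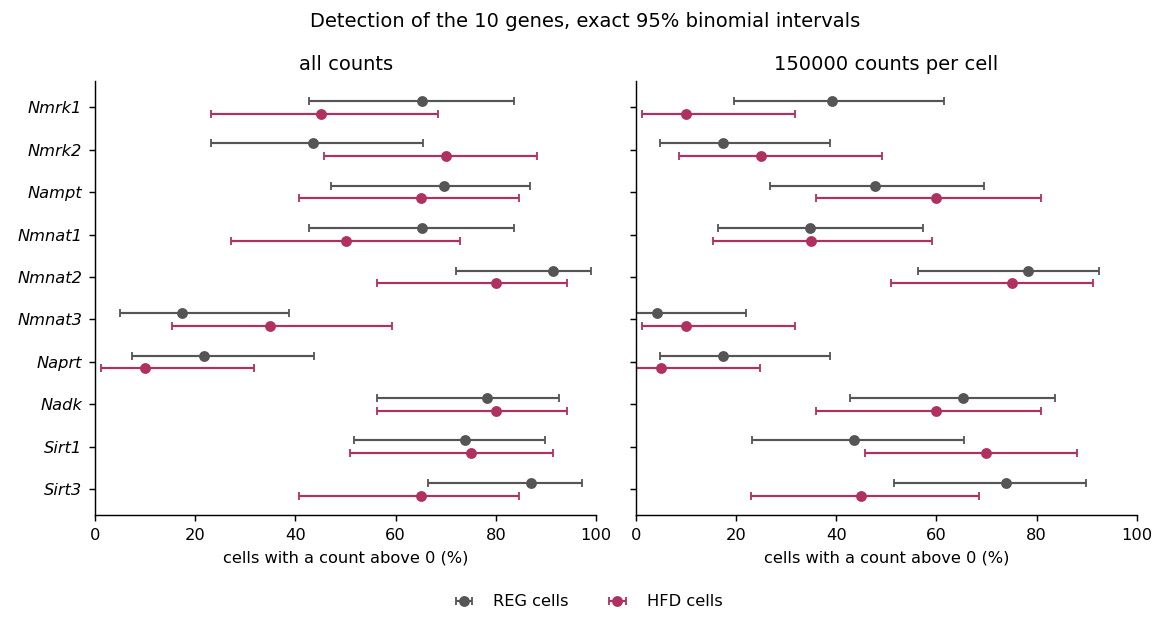
Share of REG and HFD cells with a count above 0 for each gene, with all counts and after thinning to 150000 counts per cell. Bars are exact 95% binomial intervals that treat cells as independent, and a difference between diets was not tested. The REG and HFD intervals overlap for all 10 genes in both panels, and thinning lowers the share of every gene.

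Other genes of NAD metabolism were read from lists. Of 18 genes of NAD synthesis, phosphorylation, transport and breakdown, 6 passed the filter, 1 with a ratio of at least 1 and 2 with −1 or less, against 9.04% and 14.3% of all genes of the filter. Their median ratio was −0.33 against −0.13 over all genes. *Pnp*, a purine nucleoside phosphorylase that also cleaves nicotinamide riboside, had 21.8 CPM in REG and 46.7 CPM in HFD cells (1.10), with 2.94 in batch 1 and −0.52 in batch 2, and 0.55 without HFD cell 1. *Nudt13*, a mitochondrial hydrolase of reduced dinucleotides, had 21.2 and 2.24 CPM (−3.25, with −4.74 in batch 1 and −1.44 in batch 2) and was detected in 17 REG and 7 HFD cells. *Ido1*, which opens tryptophan breakdown towards NAD, had 31.9 and 15.1 CPM (−1.08). Its ratio was −0.998 in batch 1 and −0.49 in batch 2, and −0.49 without REG cell 3. *Nnmt*, which methylates nicotinamide, had no count in 43 cells, which allows up to 3 counts in all.

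Of 13 other NAD consumers, 9 passed the filter, none with a ratio of at least 1 and 3 with −1 or less, against 9.04% and 14.3% of all genes. Their median ratio was −0.21 against −0.13. *Sirt2*, a largely cytosolic sirtuin, had 37.2 CPM in REG and 18.4 CPM in HFD cells (−1.01), with −1.15 in batch 1, −1.0 in batch 2 and −0.70 without REG cell 17. *Sirt5*, a mitochondrial sirtuin that removes acyl groups, had 37.8 and 15.4 CPM (−1.30), with −0.30 in batch 1, −1.85 in batch 2 and −0.87 without REG cell 5. *Parp1*, the main polymerase of ADP-ribose after DNA damage, had 73.8 and 34.9 CPM (−1.08), with −3.19 in batch 1, −0.13 in batch 2 and −0.72 without REG cell 12. *Sarm1*, the NADase that drives axon degeneration when *Nmnat2* is lost, had 5.21 and 4.77 CPM.

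*Nmrk2* is known to rise in injured neurons, so 10 genes of the axon injury response were read beside it, and 6 passed the filter. Their median ratio was −0.25 against −0.13 over all genes of the filter. None had a ratio of at least 1, against 9.04% of all genes of the filter. Only *Ecel1*, a neuronal endopeptidase, had a ratio of −1 or less (−2.17), against 14.3%. REG cell 23 held 57.5% of its REG sum, the ratio without that cell was −0.998, and *Ecel1* was detected in 7 REG and 8 HFD cells. The transcription factor *Atf3* had 36.9 CPM in REG and 53.8 CPM in HFD cells (0.55), and the neuropeptide *Gal* had no count. The summed CPM of the list had a median of 509 in REG and 316 in HFD cells, and it was 160 in HFD cell 2. The sums overlapped, from 81.0 to 1191 CPM in REG and from 68.3 to 1208 CPM in HFD cells. A large part of them was *Gap43*, detected in all 43 cells with means of 284 CPM (REG) and 235 CPM (HFD). Below the filter, *Sprr1a* was found in 1 cell of each diet, and the HFD cell was HFD cell 1 with 56.1 CPM, the cell with the second highest *Nmrk2*. The same cell had the highest HFD value of *Gadd45a*, 5.61 CPM, which was 1 count. The REG cell was REG cell 1, the shallowest of all cells, with 22.6 CPM of *Sprr1a*. It also had the highest REG value of *Gadd45a*, 62.2 CPM, and no count of *Nmrk2*. A link between these genes and *Nmrk2* was not tested.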

How the data were processed

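Single-cell patch sequencing libraries (SMART-Seq kits, Nextera XT, paired ends) were mapped by the authors to mouse GRCm38 transcripts with kallisto, summed to genes, and cells low in reads or genes were excluded. The deposited tables hold estimated counts without normalization and TPM that the authors computed within each cell. The members and lists were chosen with earlier results of these data known.

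CPM scales estimated counts to a total of 1000000 in each cell. Ratios were log2 of mean CPM in HFD over REG cells, without a pseudocount. "At least 1" is a limit of size, not a test. Genes with more than 15 CPM in 5 or more cells and a mean over 4 CPM passed the filter, 10802 in all. Detection means an estimated count above 0. Thinning drew 150000 counts per cell with a fixed seed, and no cell was shallower. Exact 95% intervals of summed counts and of their ratios treat counts as independent and cover counting error only, and reads carry no molecular identifiers. Exact 95% intervals of detection (Clopper-Pearson) treat cells as independent. They leave out the spread between mice, since the labels name no mouse. The highest Pearson correlation between 2 cells was 0.577, far from that of duplicates. Words of 31 bases were compared over GENCODE transcripts of the same build, which also gave coordinates. Whether counting used strand is not given in the sources used here.

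Named genes were all members, list genes past the filter with an absolute ratio of at least 1, genes overlapping or next to a member within 5000 bases, and the 3 genes most like *Nmrk2*, of which 1 is not reported here. *Sarm1*, *Atf3*, *Gal*, *Gap43*, *Nnmt*, *Sprr1a* and *Gadd45a* were added after their values were seen. Scripts used Python 3.11.15, pandas 2.3.3, scipy 1.17.1 and, in R 4.3.3, edgeR 4.0.16 and DESeq2 1.42.0 for alternatives only. The ratio of mean CPM was checked on simulated data with known changes and no batch effect. Coefficients of edgeR were run on the same simulated data, but no limit was set for them. Alternatives covered scaling, thinning, summary, filter, batch and single cells.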

Additional observations from a re-analysis of the deposited data

How the results depend on the processing

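Leaving out several of the highest cells was chosen after seeing the data. No paired analysis was possible because no label ties a cell to a mouse. Causes of moved values were not tested, except where the construction is named.

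The log2 ratio of *Nmrk2*, 4.99, was 6.12 in batch 1 and 4.08 after thinning. The difference of mean log2(CPM + 1) was 1.42 and that of log2(CPM + 10) was 0.70. By construction, the added constant shrinks change in low genes. A mean of logs also gives less weight to single high cells, and HFD cell 2 held 79.6% of the HFD sum. These effects were not separated. Without the highest cell of each diet the ratio of means was 3.81, and without the 3 highest of each it was 3.19. Without the 3 highest HFD cells it was 0.96 and without the 5 highest −0.13, a reversal. With any 1 cell left out it ran from 2.77, without HFD cell 2, to 6.03, without REG cell 12. TPM, DESeq2 and TMM factors, summed counts, totals that leave out *Lars2* and *Gm19220*, edgeR coefficients with and without batch, batch 2 and the mean of both batches moved it by less than the counting interval. TMM and DESeq2 factors raised the median ratio of all genes by 0.13 and 0.14.

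Members past the limit, 3 as reported, numbered 5 for batch 1 and 6 for batch 2. They numbered 1 when the filter asked for 10 cells, which fewer genes pass, and 2 to 5 with any 1 cell left out. The share of all genes past the limit was not counted at these settings. The counts therefore have no background beside them and are not read as a result about the members. The difference in the median number of members per cell, −1 as reported, was 2 in batch 1 and 0 after thinning.

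Apart from single cells, *Nmrk1* was below 0 in 13 of 13 alternatives, *Nadk* in 14 of 14 and *Sirt3* in 14 of 14, and the ratio of *Sirt3* was above −1 on TPM, TMM and DESeq2 scaling (−0.80, −0.81 and −0.94). *Nampt* kept its sign in 10 of 14, *Nmnat1* in 11, *Nmnat2* in 12 and *Sirt1* in 10. *Nmnat3* kept it in 9 of 11 and *Naprt* in 6 of 11. Depth limits low genes, since 1 count is worth up to 5.65 CPM.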
